A study of Mus musculus with 18 samples.

Results

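IgE activation was compared with no stimulation in wild-type (WT) mouse basophils, on 6 of the 18 arrays of the series. The members were taken by their column names, 3 arrays of WT cells after IgE activation and 3 of unstimulated WT cells. The cells were basophils, a rare granulocyte, derived from bone marrow; the mice were C57BL/6J, 4 to 6 weeks old. The labels give 4 h for the IgE-activated group and no time for the unstimulated group, and they do not say which antigen or antibody crosslinked the IgE. The other 12 arrays hold WT cells stimulated with IL-33 and cells labelled as lacking the IL-33 receptor ST2 (ST2KO) under the same 3 treatments, 3 arrays in each of the 6 groups. RNA was measured on an Illumina bead array with 45281 probes.

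Basophils carry IgE on a high-affinity receptor, the Fc epsilon receptor, whose chains are encoded by Fcer1a, Ms4a2 and Fcer1g. When bound IgE is crosslinked, Lyn and Syk kinases phosphorylate the receptor and the adaptor LAT, calcium enters, and the calcineurin-NFAT, NF-kB and MAP kinase pathways start transcription. The cells release histamine and lipid mediators within minutes and secrete cytokines, IL-4 and IL-13 foremost, over hours. Phosphoinositide 3-kinase (PI3K) signalling through Akt keeps FoxO transcription factors out of the nucleus, and growth signals raise ribosome production.

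Values are normalized log2 levels of the brightest probe of a gene, printed in the order of replicate numbers 1, 2 and 3, and differences are log2 fold changes ± standard error with n = 3 arrays per group. A level is comparable between arrays for 1 probe and not between genes. Adjusted p-values come from limma with Benjamini-Hochberg adjustment over all 9973 genes tested, and a gene is said to rise or fall where the adjusted p is under 0.05. Nothing in the labels ties the replicates to separate animals or cultures, so the p-values weigh a difference only against the spread of these samples, part of which may be technical. The 6 arrays detected between 14769 and 15724 probes each, and their number limits the precision. In RNA from a whole culture, fewer cells of a type and less RNA per cell cannot be told apart.

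The arrays of replicate number 2 stood apart in part of the genes. Unstimulated array 2 had higher levels of Tnf, Csf2, Cxcl2 and many interferon-response genes than unstimulated arrays 1 and 3, and IgE array 2 had higher levels of interferon-response genes and lower levels of Il1a, Il2 and Il3 than IgE arrays 1 and 3. The numbers paired the samples, since unstimulated and IgE arrays of the same number deviated from their group means together. Where a fold moved by over 1.5 times without an array, its value without that array is given beside the gene. The replicate correlation within either group lay between 0.983 and 0.990 across genes, and between the 2 groups it lay between 0.916 and 0.940.

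On the normalized scale about as many genes were called higher as lower after IgE, and the rises were larger. Of 9973 genes tested, 4685 passed (47%), 2264 higher (22.7%) and 2421 lower (24.3%) after IgE. The median change over all genes was -0.017. Quantile normalization gives every array the same distribution of levels, so a shift shared by most genes cannot be seen. The balance of rises and falls and the median near zero are therefore largely set by that step. They do not show whether IgE changed the total amount of RNA. At 2-fold or more, 759 genes were higher (7.61%) and 642 lower (6.44%). Past 8-fold there were 60 rises and 13 falls among genes that passed, and past 4-fold there were 188 and 84. The 3 IgE and 3 unstimulated arrays did not overlap for 5077 genes (50.9%), higher in 24.6% and lower in 26.3%. Among the genes that passed, 186 were above background on no unstimulated array and 163 on no IgE array, so that only a bound on their fold is known. Such a fold is written as at least a number. The brighter group's mean is divided by that of the dim group, where each dim array counts with whichever is higher, its level of that probe or the lowest level at which it detected any probe.

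**Figure D1:**
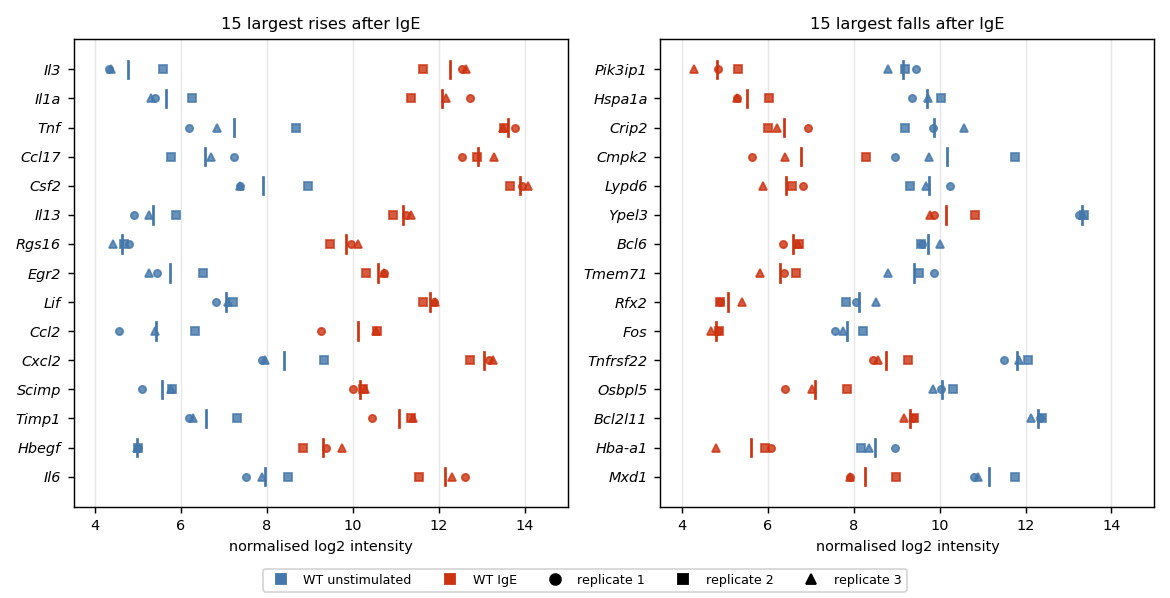
Normalised log2 intensity on each of the 6 arrays for the 15 genes with the largest rises (left) and the 15 with the largest falls (right) after IgE in WT basophils, among genes above background on at least 1 array of each group; point shapes are replicate numbers and short lines the mean of each group. For every gene plotted the 3 IgE arrays lie on 1 side of the 3 unstimulated arrays, with Il3 at 4.33, 5.59 and 4.38 unstimulated and 12.54, 11.64 and 12.64 after IgE.

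Cytokine genes were among the largest rises. Of 9 measured genes of type 2 and growth cytokines 8 rose and 0 fell, where 22.7% and 24.3% of all genes tested did, and their median change was 4.33 against -0.017 for all. Measured here means above background on at least 3 of the 18 arrays, and the listed genes that were not are left out of each count. Every later list count is to be read against the same 22.7% and 24.3%. Il3, the growth and survival factor of basophils themselves, had levels of 4.33, 5.59 and 4.38 in unstimulated cells and 12.54, 11.64 and 12.64 after IgE. It was detected on 1 of 3 unstimulated arrays and on all IgE arrays, and it rose 182-fold (7.51 ± 0.34, adjusted p = 5.9e-11). The fold was 301 without the arrays of number 2. Csf2, which encodes granulocyte-macrophage colony-stimulating factor, went from 7.37, 8.97 and 7.38 to 13.95, 13.66 and 14.08, a rise of 63.6-fold (5.99 ± 0.39, adjusted p = 2.7e-09) that came to 99.6-fold without number 2. Il13, a type 2 cytokine gene that acts on epithelium and smooth muscle, went from 4.90, 5.87 and 5.27 to 11.23, 10.95 and 11.35, a rise of 56.9-fold (5.83 ± 0.23, adjusted p = 1.1e-11). In all 3 genes the IgE arrays lay well above every unstimulated array.

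Il4, the cytokine gene for which basophils are best known, was already bright in unstimulated cells at 10.83, 11.03 and 10.83. After IgE it stood at 14.62, 14.59 and 14.64, a rise of 13.2-fold (3.72 ± 0.11, adjusted p = 1.8e-13). On the IgE arrays it ranked between 2 and 4 among all genes by level, close to the highest level of 14.75 that the normalized scale holds. Il2, a T cell growth factor, was above background on no unstimulated array (4.36, 4.41 and 4.53) and on all IgE arrays (11.34, 9.73 and 11.60), at least 67.6-fold higher (adjusted p = 2.8e-10). Hbegf, which encodes a heparin-binding ligand of the EGF receptor, rose 20.1-fold from 4.99, 5.0 and 4.96 to 9.37, 8.83 and 9.74. Il5, the eosinophil growth factor, had dim levels of 4.33, 4.29 and 5.03 against 5.56, 5.02 and 5.03. Its change of 0.65 ± 0.21 passed (adjusted p = 0.016), with unstimulated array 3 just above IgE arrays 2 and 3, and lost the call under 4 alternatives (adjusted p 0.0016 to 0.094 over all of them). Csf1, the macrophage growth factor, was the member that did not pass (-0.03 ± 0.16, adjusted p = 0.89). Il5 and Csf1, like the other single members that are set against their list in what follows, were picked out after their values were seen.

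In the RefSeq gene order of mouse chromosome 11, Il4, Il13, Il5, Irf1, Csf2 and Il3 lie in 1 cluster. All of its cytokine genes were called higher after IgE. Irf1, an interferon-induced transcription factor gene that lies among them, fell from 10.66, 11.80 and 10.91 to 9.12, 9.96 and 9.08 (-1.74 ± 0.33, adjusted p = 0.00034), and its arrays did not overlap.

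Genes of acute inflammation rose too. Of 13 measured inflammatory and IL-6 family cytokines 10 rose and 2 fell, with a median change of 2.61, and the falls were 1 without unstimulated array 2, IgE array 3 or number 2. Il1a, which encodes interleukin 1 alpha, had levels of 5.40, 6.26 and 5.30 in unstimulated cells and 12.73, 11.36 and 12.17 after IgE, a rise of 86.3-fold (6.43 ± 0.27, adjusted p = 2.6e-11) that was 137-fold without number 2. Tnf, which encodes tumour necrosis factor, went from 6.20, 8.68 and 6.84 to 13.78, 13.52 and 13.51. It rose 82.2-fold (6.36 ± 0.48, adjusted p = 1.4e-08), and the fold was 136 without unstimulated array 2, whose level was the highest of its group. Il6, a cytokine of the acute phase response, went from 7.50, 8.48 and 7.88 to 12.61, 11.53 and 12.30, an 18.3-fold rise (4.19 ± 0.27, adjusted p = 2.3e-09). Lif, a member of the same cytokine family, rose 27.2-fold (4.77 ± 0.15), and Il1b, the gene of interleukin 1 beta, rose 7.70-fold (2.94 ± 0.15). After IgE Il1b stood at 14.52, 14.32 and 14.49, close to the highest level of 14.75 that the normalized scale holds, so its fold may be understated.

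The IL-33 gene itself was among them. Il33, an alarmin of the IL-1 family, was above background on no unstimulated WT array (4.70, 4.36 and 4.43) and reached 7.29, 7.18 and 7.51 after IgE, at least 5.71-fold higher (adjusted p = 5.5e-11). Il1rn, which encodes the natural antagonist of the IL-1 receptor, rose 6.09-fold (2.61 ± 0.28). The falls were Vegfa, an angiogenic growth factor gene, by 1.52 on the log2 scale (± 0.27, adjusted p = 0.00015), and Il18, whose change of -0.59 ± 0.20 lost its call under 6 alternatives (adjusted p 0.014 to 0.13).

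Chemokine genes rose in 14 of 18 cases and fell in 1, with a median change of 2.20. Ccl1, a ligand of the receptor CCR8, was above background on no unstimulated array (4.43, 4.68 and 4.29) and reached 12.90, 12.06 and 13.01 after IgE. It was at least 230-fold higher (adjusted p = 3.9e-14), the largest such bound. Ccl17, a ligand of CCR4 on type 2 helper T cells, went from 7.24, 5.77 and 6.70 to 12.55, 12.88 and 13.29, a rise of 80.8-fold (6.34 ± 0.34, adjusted p = 4e-10). Cxcl2, a neutrophil attractant, went from 7.90, 9.32 and 7.96 to 13.18, 12.74 and 13.26. It rose 25.4-fold (4.66 ± 0.31, adjusted p = 3.5e-09), and 39.1-fold without number 2. Xcl1, the ligand of XCR1 on cross-presenting dendritic cells, was at least 20.0-fold higher, and Ccl24, an eosinophil attractant, rose 18-fold from 5.24, 4.75 and 4.71 to 8.93, 9.15 and 9.12.

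The monocyte attractants had a wide spread between arrays. Ccl2 went from 4.55, 6.33 and 5.39 to 9.25, 10.57 and 10.55, a rise of 25.9-fold (4.70 ± 0.55, adjusted p = 2e-06). Ccl7 went from 5.63, 8.79 and 7.05 to 10.42, 11.38 and 11.49 (3.94 ± 0.78, 15.4-fold), and its fold ran from 9.07 without unstimulated array 1 to 27.1 without unstimulated array 2. Ccl12 stood at 5.32, 9.54 and 8.14 after IgE against 4.46, 4.92 and 4.44, and its 8.35-fold rise was 18.8-fold without IgE array 1 and 4.37-fold without IgE array 2. Ccl8 stood at 4.96, 8.58 and 6.86 against 4.41, 5.03 and 4.38 (2.19 ± 0.55), and its 4.58-fold rise was 8.67-fold without IgE array 1, 2.47-fold without IgE array 2 and 2.86-fold without number 2 throughout. Ccl12 was 4.87-fold higher without number 2, and Ccl7 was 24.5-fold higher. Ccl2, Ccl7, Ccl12, Ccl8 and Ccl1 lie in 1 cluster on chromosome 11 in the RefSeq gene order, and these 5 passed. The cluster is not fully named here.

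Ccl3, an attractant of monocytes and other leukocytes, was the brightest gene tested on each IgE array, at 14.75, 14.75 and 14.75, against 12.49, 13.18 and 12.53 in unstimulated cells. Quantile normalization gives the brightest gene the same value on every array, so neither the identical levels nor the 4.04-fold rise (2.02 ± 0.16) shows how far it would have gone on a wider scale. Cxcl10, an interferon-induced chemokine, was the single fall. Its levels were 5.88, 10.64 and 7.41 in unstimulated cells and 4.46, 5.97 and 4.61 after IgE, with an overlap between the groups. The change of -2.96 ± 1.10 (adjusted p = 0.035) was -1.63 without unstimulated array 2 (adjusted p = 0.22), -4.01 without unstimulated array 1 and -2.11 without number 2, and 7 alternatives in all ended the call (adjusted p 0.0014 to 0.22).

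RefSeq's promoter table holds 12 of the 15 genes with the largest rises among those above background on at least 1 array of each group. The 4 largest of these are shown because these genes went up together, with matches to short motifs of transcription factors downstream of the receptor in capitals. Each runs 5′ to 3′ on the gene's own strand from 250 bases before to 50 after the start, in mouse build GRCm38.p6. Il3, Il1a and Tnf lie on the minus strand and Ccl17 on the plus strand.
Il3 chr11:54267230-54267529: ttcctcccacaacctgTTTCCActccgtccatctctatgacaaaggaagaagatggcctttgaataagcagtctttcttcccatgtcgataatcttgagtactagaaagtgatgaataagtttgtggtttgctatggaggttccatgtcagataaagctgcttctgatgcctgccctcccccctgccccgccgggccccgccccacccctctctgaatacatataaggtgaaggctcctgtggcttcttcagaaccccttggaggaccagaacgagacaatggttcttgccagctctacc
Il1a chr2:129309923-129310222: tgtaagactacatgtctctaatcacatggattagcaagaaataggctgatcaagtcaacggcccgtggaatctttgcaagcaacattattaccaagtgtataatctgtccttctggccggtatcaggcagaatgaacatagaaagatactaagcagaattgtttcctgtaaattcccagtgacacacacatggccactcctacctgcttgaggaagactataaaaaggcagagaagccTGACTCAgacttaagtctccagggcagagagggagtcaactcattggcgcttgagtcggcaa
Tnf chr17:35201958-35202257: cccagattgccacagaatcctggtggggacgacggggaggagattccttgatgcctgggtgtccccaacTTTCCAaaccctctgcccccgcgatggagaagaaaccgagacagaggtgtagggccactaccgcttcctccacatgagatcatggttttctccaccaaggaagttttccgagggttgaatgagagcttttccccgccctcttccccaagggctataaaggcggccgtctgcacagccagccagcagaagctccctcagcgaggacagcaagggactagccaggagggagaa
Ccl17 chr8:94810203-94810502: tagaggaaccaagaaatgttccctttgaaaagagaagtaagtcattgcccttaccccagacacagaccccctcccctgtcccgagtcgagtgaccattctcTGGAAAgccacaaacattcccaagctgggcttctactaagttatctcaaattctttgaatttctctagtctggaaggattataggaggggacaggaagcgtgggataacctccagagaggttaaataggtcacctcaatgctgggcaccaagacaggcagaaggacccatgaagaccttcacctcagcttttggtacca
The capitals mark an NFAT core (TGGAAA, or TTTCCA on the other strand) that begins at position -234 of Il3, -181 of Tnf and -149 of Ccl17, counted from the start, and an AP-1 match (TGANTCA) at -12 of Il1a. The NFAT letters, short enough to be common, were in 21.5% of all 27025 promoters (1 per gene), in 16.9% of the 8123 genes tested that have one, in 22.8% of the 622 that rose at least 2-fold and in 14.8% of the 540 that fell at least 2-fold. For NF-kB (GGANTTTCC) the shares were 1.23%, 1.38%, 3.05% and 0.926%. For the E-box CACGTG, which MYC and its relatives can bind, they were 7.24%, 10.3%, 14.8% and 8.52%. AP-1 was in 7.93%, 5.39%, 6.27% and 4.81%, CRE (TGACGTCA) in 1.88%, 3.15%, 3.05% and 2.96%, and EGR (GCGTGGGCG) in 0.625%, 1.32%, 1.93% and 0.556%. Both strands were searched, and a match is a description of letters, not a binding site. The NF-kB letters can overlap the core of the NFAT letters.

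**Figure D2:**
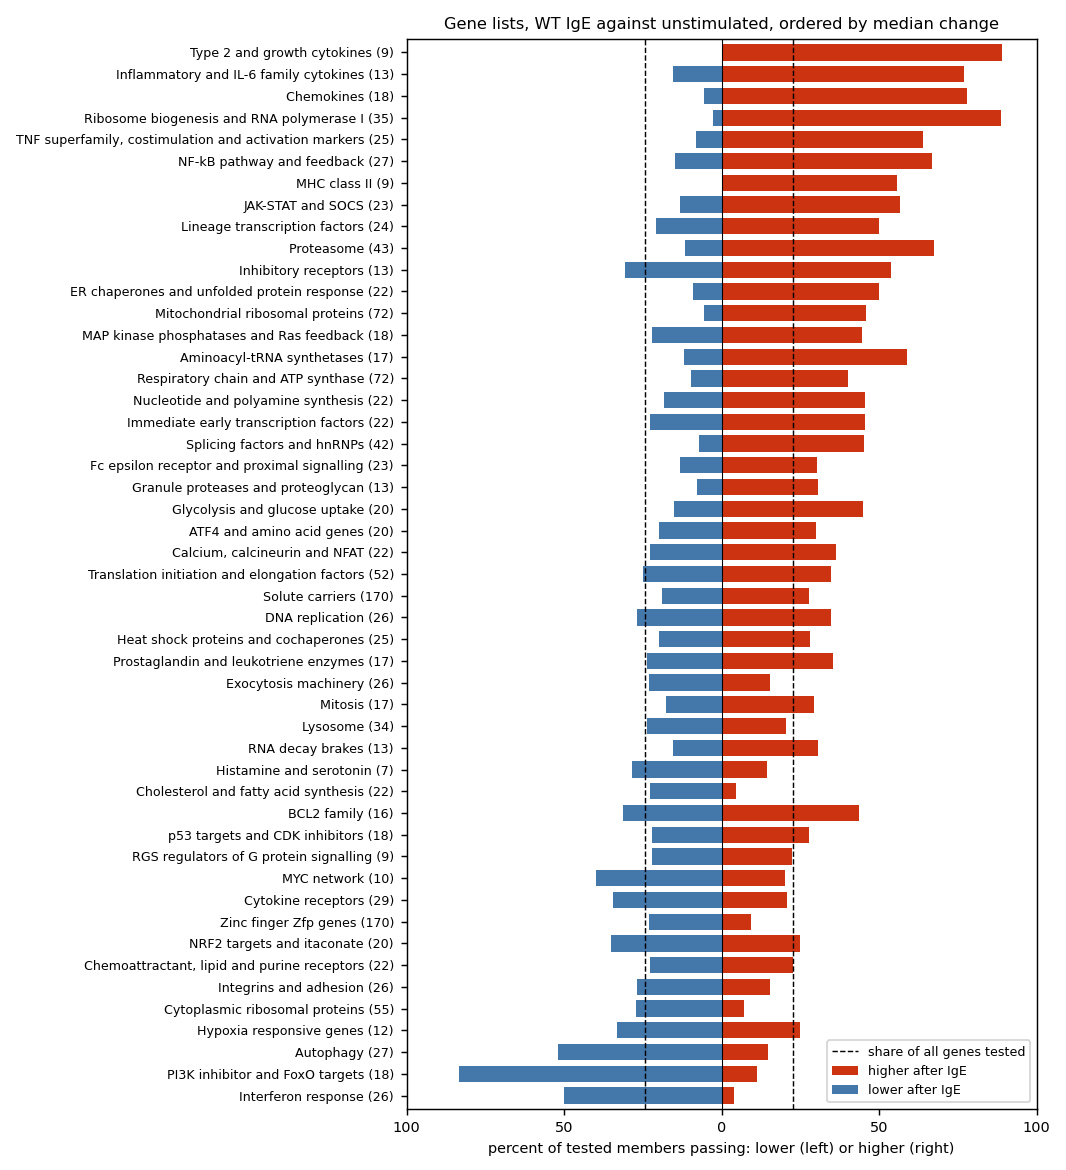
Percent of the measured members of each gene list, with their number in parentheses, that passed higher (right) or lower (left) after IgE in WT basophils, with dashed lines at the share of all genes tested (22.7% higher, 24.3% lower). Cytokines, chemokines and ribosome biogenesis reach furthest past the line on the higher side. The FoxO, autophagy and interferon lists reach furthest past it on the lower side, where other lists pass it too.

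Surface molecules of T cell contact rose with the cytokines. Of 25 measured genes of the TNF superfamily, costimulation and activation markers 16 rose and 2 fell, with a median change of 1.30. Tnfrsf9, the costimulatory receptor 4-1BB, went from 8.38, 7.45 and 7.31 to 11.41, 10.87 and 11.27, a rise of 11.1-fold (3.48 ± 0.32, adjusted p = 1.3e-07). Lta, which encodes lymphotoxin alpha and lies beside Tnf on chromosome 17, rose 8.31-fold, Tnfrsf4 (OX40) 4.80-fold, Cd83 4.73-fold and the adhesion ligand Icam1 4.38-fold. Pdcd1lg2, which encodes the PD-1 ligand PD-L2, went from 8.90, 9.16 and 8.65 to 10.70, 10.76 and 10.79 (1.85 ± 0.13, adjusted p = 5.4e-09). Cd40 rose 3.57-fold, or 5.40-fold without number 2, and 1 of its probes had a change of opposite sign.

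Cytokine receptor genes moved in both directions. Of 29 measured receptor genes 6 rose and 10 fell, with a median of -0.05. Il2ra, the high-affinity subunit of the IL-2 receptor, went from 5.13, 4.75 and 4.67 to 7.78, 6.12 and 7.28, a rise of 4.62-fold (2.21 ± 0.32, adjusted p = 2.5e-05). The subunits that bind IL-3 went slightly down, Il3ra by 0.38 on the log2 scale (± 0.10, adjusted p = 0.0039) and the shared subunit Csf2rb by 0.53 (± 0.11, adjusted p = 0.00068). Il18r1, a receptor of IL-18, fell 3.55-fold and Ifngr1, a subunit of the interferon gamma receptor, 2.65-fold. Among 22 receptors for chemoattractants, lipids and purines 5 rose and 5 fell (22.7% each), near the 22.7% and 24.3% of all genes tested. Cxcr4, which holds leukocytes in the marrow, went from 9.56, 9.31 and 9.37 to 7.27, 7.47 and 7.67, a fall of 3.85-fold (-1.94 ± 0.16), while the nucleotide receptor P2ry1 rose 3.59-fold and the histamine receptor Hrh2 2.88-fold.

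The receptor for IgE changed little at the RNA level. Fcer1a, its IgE-binding chain, stood at 14.01, 13.85 and 13.90 in unstimulated cells and 14.01, 13.36 and 13.88 after IgE (-0.17 ± 0.16, adjusted p = 0.42). Ms4a2, its beta chain, changed by -0.42 ± 0.14 (adjusted p = 0.023), and the call ended under 6 alternatives (adjusted p 0.0036 to 0.14). Fcer1g, the signalling chain, changed by 0.22 ± 0.10 (adjusted p = 0.094). Its 3 IgE arrays all lay above the unstimulated ones, and it passed without background correction (adjusted p = 0.039) and with trend and robust variance (adjusted p = 0.044). Syk, the kinase it recruits, changed by 0.27 ± 0.17 (adjusted p = 0.21). Over the 23 measured genes of the receptor and its proximal pathway 7 rose and 3 fell, with a median of 0.22, and the falls were 0 without unstimulated array 1 or with only the compared groups fitted, and 1 without IgE array 3 or number 2. The rises were led by Pik3cd, the leukocyte catalytic subunit of PI3K, which went from 7.78, 7.93 and 8.24 to 9.75, 10.16 and 10.13 (2.03 ± 0.13, adjusted p = 2e-09). Rasgrp1, an activator of Ras, rose 2.68-fold, the phosphatase gene Ptpn6 2.18-fold and the adaptor gene Lat 1.75-fold. Lcp2, an adaptor that binds LAT complexes, rose 2.23-fold with 1 of its probes opposite in sign.

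Inhibitory receptors moved in both directions, 7 up and 4 down of 13. Pilra, a paired receptor with an inhibitory tail, went from 7.38, 7.81 and 7.0 to 11.03, 10.89 and 10.82, a rise of 11.4-fold (3.51 ± 0.17, adjusted p = 1.4e-10). Fcgr2b, the inhibitory IgG receptor that restrains the IgE receptor when both are bound, went from 12.02, 12.21 and 11.90 to 9.99, 11.05 and 9.92, a fall of 3.30-fold (-1.72 ± 0.22, adjusted p = 5e-06). Cd300a, another inhibitory receptor, fell 4.18-fold, and Milr1 (Allergin-1) rose 3.39-fold. In both falling genes the 3 IgE arrays lay below the 3 unstimulated arrays.

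Transcription factors of the calcium and NFAT response included strong rises. Irf4, a partner of NFAT at cytokine genes, went from 5.08, 4.80 and 4.94 to 8.87, 8.22 and 8.99, a rise of 13.5-fold (3.75 ± 0.19, adjusted p = 2.4e-10). Batf, an AP-1 family partner of IRF4, rose 4.59-fold (2.20 ± 0.17), and Batf3 was at least 4.54-fold higher. Of the 22 measured genes of the calcium, calcineurin and NFAT list 8 rose (36.4%) and 5 fell (22.7%), with a median of 0.12. The falls of this list were near the 24.3% of all genes tested. The fall of Itpr3, an inositol trisphosphate receptor that releases calcium, was 2.27-fold.

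Of 22 measured immediate early genes 10 rose (45.5%) and 5 fell (22.7%) at the labelled 4 h. The falls were near the 24.3% of all genes tested that fell, and the rises were above the 22.7% that rose. Egr2 went from 5.45, 6.51 and 5.27 to 10.72, 10.31 and 10.72, a rise of 28.6-fold (4.84 ± 0.25, adjusted p = 2.3e-10), and Egr3 rose 5.23-fold and Egr1 3.02-fold. Fos, the classical immediate early partner of Jun, went the other way, from 7.56, 8.22 and 7.75 to 4.83, 4.87 and 4.68, a fall of 8.28-fold (-3.05 ± 0.19, adjusted p = 2e-09). Fosb fell 2.95-fold and Klf2, a quiescence factor of lymphocytes, 2.45-fold. For Fos and Egr2 every array of one group lay apart from the other group by more than the spread within either.

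NF-kB genes rose in 18 of 27 cases and fell in 4, with a median of 0.87. The largest rises included inhibitor and precursor genes that feed back on the pathway. Nfkbid went from 8.55, 8.53 and 8.66 to 11.68, 11.07 and 11.58 (2.86 ± 0.14, 7.28-fold, adjusted p = 1.5e-10). Nfkbie rose 5.16-fold, the kinase gene Ikbke 4.47-fold, the precursor gene Nfkb2 4.29-fold, and Nfkbia, the main inhibitor, 4.08-fold. Relb rose 3.75-fold, Rel 2.35-fold and Tnfaip3, which encodes the deubiquitinase A20, 1.82-fold.

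Feedback genes of other pathways moved both ways. Of 18 measured MAP kinase phosphatases and Ras feedback genes 8 rose (44.4%) and 4 fell (22.2%), with a median of 0.37. These falls were near the 24.3% of all genes tested. Dusp2, a phosphatase of nuclear MAP kinases, went from 4.81, 4.65 and 4.76 to 8.53, 7.28 and 8.27 (3.29 ± 0.21, 9.77-fold), and Dusp4 rose 5.65-fold and Dusp5 3.83-fold. Dusp1, the immediate early member, went from 11.09, 11.51 and 11.45 to 9.58, 9.68 and 9.73, a fall of 3.22-fold (-1.69 ± 0.14, adjusted p = 3.3e-08). In the JAK-STAT list 13 of 23 rose and 3 fell, with a median of 0.58. Socs3, an inhibitor of JAK kinases downstream of gp130, went from 7.48, 8.25 and 8.01 to 11.43, 10.73 and 11.02, a rise of 8.87-fold (3.15 ± 0.22), and Socs1 rose 4.35-fold. Cish and Stat5a, genes of the IL-3 and IL-2 receptor pathway, rose 3.32-fold and 3.31-fold.

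Rgs16 led the regulators of G protein signalling, of which 2 of 9 rose and 2 fell (22.2% each, against 22.7% and 24.3% of all genes tested). It went from 4.78, 4.66 and 4.41 to 9.96, 9.47 and 10.13, 37.7-fold higher (5.24 ± 0.15, adjusted p = 1.8e-13), and was detected on 1 of 3 unstimulated arrays. Rgs1, which limits chemokine receptor signals, fell 3.59-fold, and Rgs2 was above background on no IgE array, at least 2.84-fold lower. Of 13 genes that degrade or destabilise messenger RNA 4 rose and 2 fell, with 2 rises without IgE array 1 or 3 and 4 falls without IgE array 1. Zc3h12a, which encodes the endonuclease Regnase-1, rose 2.80-fold, and Zfp36, which encodes the AU-rich element binding protein tristetraprolin, fell 2.24-fold. Other large rises were the adaptor gene Scimp (24.6-fold), the metalloproteinase inhibitor gene Timp1 (22.3-fold) and, with no unstimulated array above background, the proenkephalin gene Penk (at least 13.8-fold), the glutathione transferase gene Gstt1 (at least 12.5-fold), the receptor kinase gene Mst1r (at least 8.55-fold), Dcstamp (at least 8.36-fold) and the carbonic anhydrase gene Car4 (at least 7.70-fold).

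**Figure D3:**
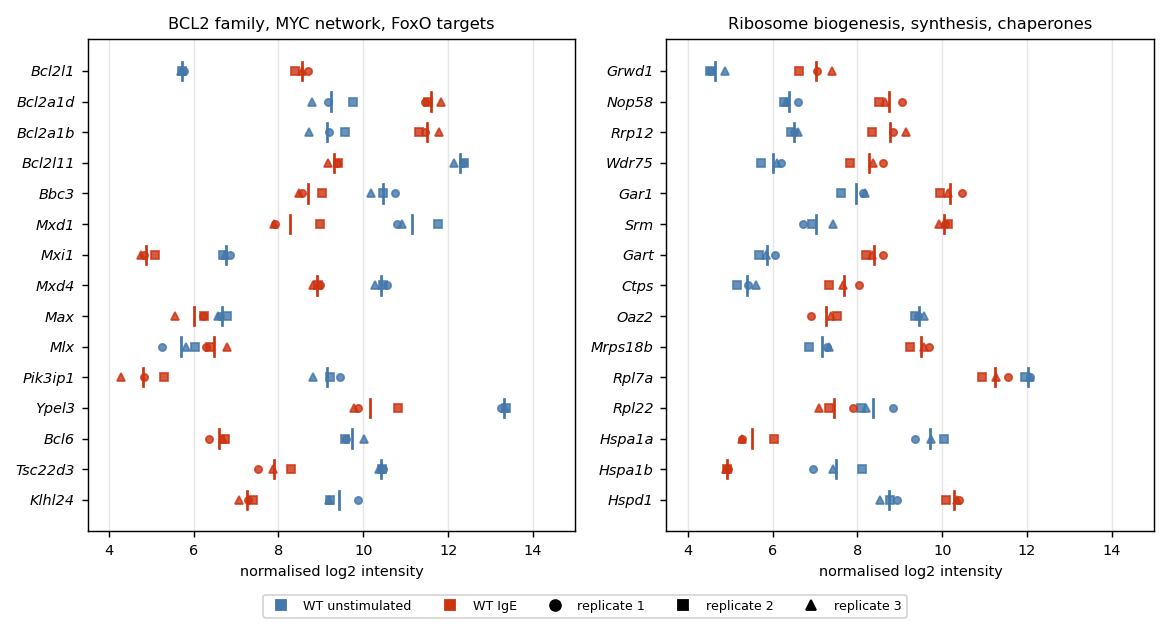
Normalised log2 intensity on each of the 6 arrays for named genes of the BCL2 family, MYC network and FoxO targets (left) and of ribosome biogenesis, synthesis and chaperones (right); point shapes are replicate numbers and short lines group means. The IgE arrays of Bcl2l11 lie between 9.18 and 9.40, below 12.13 to 12.38 unstimulated, and those of Srm between 9.92 and 10.12, above 6.71 to 7.43.

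The largest fall was in a negative regulator of PI3K. Pik3ip1, which encodes a transmembrane inhibitor of PI3K, went from 9.44, 9.20 and 8.81 to 4.84, 5.31 and 4.29, a fall of 20.2-fold (-4.34 ± 0.25, adjusted p = 7.2e-10), and was still detected on 2 of 3 IgE arrays. Of 18 measured genes of the list of this inhibitor and of FoxO targets 15 fell and 2 rose, 11 of the falls at 2-fold or more, with a median of -1.25. Ypel3 went from 13.24, 13.35 and 13.33 to 9.87, 10.82 and 9.78 (-3.15 ± 0.19, 8.89-fold). Bcl6, a transcriptional repressor, went from 9.60, 9.57 and 10.01 to 6.36, 6.74 and 6.70 (-3.13 ± 0.16, 8.74-fold), with adjusted p-values of 1.6e-09 and 2.4e-10. Tsc22d3, which encodes the glucocorticoid-induced leucine zipper protein, fell 5.77-fold, Klhl24 4.50-fold, the cyclin gene Ccng2 3.78-fold, the thioredoxin inhibitor gene Txnip 2.46-fold and the insulin receptor substrate gene Irs2 2.30-fold. Fbxo32, a ubiquitin ligase gene, was above background on no IgE array and at least 3.25-fold lower.

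The factor genes themselves did not fall alike. Foxo3 rose from 5.78, 5.75 and 5.67 to 6.65, 6.58 and 6.64 (0.89 ± 0.17, adjusted p = 0.0004), without overlap. Foxo1 changed by -0.33 ± 0.12 (adjusted p = 0.035), a call that 8 alternatives ended (adjusted p 0.012 to 0.19). Trib2, a pseudokinase gene, was the other rise (0.67 ± 0.27, adjusted p = 0.048), and 8 alternatives ended it as well (adjusted p 0.0025 to 0.28).

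The 5 falls in the BCL2 family were all of genes that promote cell death, and 5 of its 7 rises were of genes that protect from it. Bcl2l11, which encodes the death-promoting BH3 protein BIM, went from 12.34, 12.38 and 12.13 to 9.37, 9.40 and 9.18, a fall of 7.82-fold (-2.97 ± 0.10, adjusted p = 2e-12). Bbc3, which encodes the BH3 protein PUMA, fell 3.44-fold (-1.78 ± 0.17), though the weakest of its 3 probes changed by -0.16. Bnip3l fell 2.06-fold. Bcl2l1, which encodes the survival protein BCL-XL, went from 5.76, 5.72 and 5.71 to 8.70, 8.39 and 8.55, a rise of 7.04-fold (2.82 ± 0.15, adjusted p = 3.7e-10). The survival genes Bcl2a1d, Bcl2a1b and Bcl2 rose 5.16-fold, 5.12-fold and 2.74-fold, and Bcl2a1d and Bcl2a1b are near-identical copies whose probes may share signal. Smaller changes were the rise of the protective gene Bcl2l2 (0.55) and the falls of the death genes Bmf (-0.75) and Bad (-0.35). The death genes Bid and Bak1 rose by 0.53 and 0.49, against the direction of the others. Of 4 probes of Bcl2l2 2 were opposite in sign, as was 1 of 2 of Bid, and with the mean of the probes Bcl2l2 changed by 0.12 (adjusted p = 0.41) and Bid by 0.21 (adjusted p = 0.11). The calls of Bad, Bak1, Bcl2l2 and Bid each ended under 1 to 3 alternatives. Mcl1, a protective gene, changed by -0.14 ± 0.11 (adjusted p = 0.29). The median over the 16 measured members was -0.04.

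Genes of the MYC network moved in both directions, and the signal of Myc itself was dim. Mxd1, which encodes a MAX partner that opposes MYC, went from 10.80, 11.76 and 10.90 to 7.91, 8.98 and 7.90, a fall of 7.40-fold (-2.89 ± 0.33, adjusted p = 1.8e-06). Mxi1 fell 3.67-fold and Mxd4 2.86-fold. The fourth fall was that of Max, which encodes the partner that MYC needs to bind DNA, from 6.62, 6.78 and 6.59 to 6.22, 6.25 and 5.55 (-0.65 ± 0.18, adjusted p = 0.0077). Myc was above background on no unstimulated array (4.35, 4.56 and 4.43) and on all IgE arrays (5.01, 5.10 and 5.0), at least 1.17-fold higher (adjusted p = 0.001). Over the 10 measured genes of the MYC network 2 rose and 4 fell, with a median of -0.05.

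Genes of ribosome production rose together. Of 35 measured genes of ribosome biogenesis and RNA polymerase I 31 rose and 1 fell, 27 of the rises at 2-fold or more, with a median of 1.44, and without IgE array 2 or number 2 the falls were 2. Nop58, a core protein of box C/D small nucleolar RNPs, went from 6.60, 6.28 and 6.32 to 9.04, 8.51 and 8.64 (2.33 ± 0.16, 5.04-fold, adjusted p = 4.2e-09). Grwd1 rose 5.18-fold, the processing factor gene Rrp12 4.82-fold, Wdr75 4.76-fold and Gar1, a box H/ACA protein gene, 4.59-fold. Polr1a, the largest subunit of RNA polymerase I, went from 6.89, 6.18 and 6.52 to 8.49, 8.14 and 8.29 (1.78 ± 0.17, 3.43-fold). Npm1, a histone and ribosome chaperone of the nucleolus, was the single fall, from 12.41, 12.38 and 12.24 to 12.15, 11.60 and 11.71 (-0.52 ± 0.14, adjusted p = 0.0052). Nolc1 changed by 0.01 ± 0.14 (adjusted p = 0.98) and was above background on none of the 6 arrays.

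The proteins of the cytoplasmic ribosome did not rise with the factors that assemble it. Of 55 measured cytoplasmic ribosomal protein genes 4 rose and 15 fell, with a median of -0.16, and the falls were 8 when only the compared groups were fitted. Rpl7l1, a paralog with a part in ribosome assembly, rose 2.53-fold, and Rpl7a fell 1.72-fold. These genes have many processed pseudogenes, so a probe may share signal with copies.

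Other steps of protein synthesis rose in part. Srm, the spermidine synthase gene, went from 6.71, 6.94 and 7.43 to 10.07, 10.12 and 9.92, a rise of 8.07-fold (3.01 ± 0.17, adjusted p = 7.2e-10). It led a list of 22 nucleotide and polyamine genes with 10 rises and 4 falls, among them the purine synthesis genes Gart (5.72-fold) and Ppat (3.93-fold) and the cytidine triphosphate synthase gene Ctps (4.87-fold). Oaz2, which encodes an antizyme that limits polyamines, fell 4.55-fold. Of 17 aminoacyl-tRNA synthetases 10 rose and 2 fell, led by the isoleucine enzyme gene Iars (2.32 on the log2 scale). Of 52 translation factors 18 rose and 13 fell. Eef1e1 rose 8.56-fold and Eif4a1, the helicase of initiation, 3.17-fold, while Eif4b, its cofactor, fell 2.62-fold.

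Mitochondrial and proteasome genes rose in smaller steps, and the rises of respiratory chain genes depended on the arrays and the fit. Of 72 mitochondrial ribosomal protein genes 33 rose and 4 fell (median 0.38; 1 or 2 falls without unstimulated array 1, unstimulated array 3 or IgE array 1), and Mrps18b led with 5.05-fold. Of 72 respiratory chain and ATP synthase genes 29 rose (40.3%) and 7 fell (9.72%), with a median of 0.36, where 22.7% and 24.3% of all genes tested did. That count of rises was 15 with only the compared groups fitted, 17 without unstimulated array 2 and 16 without number 2. In ST2KO cells 15 of these genes rose after IgE and 11 fell (median 0.16). Cycs, which encodes cytochrome c, rose 2.90-fold. Of 43 proteasome genes 29 rose and 5 fell (median 0.42), with 2 or 3 falls without unstimulated array 3, IgE array 1 or IgE array 3. The catalytic pair Psmb5 and Psmb6 of the standard proteasome rose 1.86-fold and 1.81-fold. Psmb9, an interferon-inducible catalytic subunit, went from 9.81, 9.98 and 9.62 to 8.19, 8.84 and 8.24, a fall of 2.60-fold (-1.38 ± 0.17, adjusted p = 2.8e-06). Psmb10, another inducible subunit, rose 1.79-fold, and the change of Psmb8, the remaining one, was -0.42 ± 0.16 with a call that 7 alternatives ended (adjusted p 0.0018 to 0.19). Splicing factors and hnRNPs rose in 19 of 42 cases and fell in 3, with Hnrnpab at 2.95-fold, and the falls ran from 0 to 5 as single arrays were left out.

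Heat shock genes moved in both directions. Hspa1a, the stress-inducible cytosolic HSP70, went from 9.36, 10.04 and 9.74 to 5.28, 6.03 and 5.28, a fall of 18.2-fold (-4.18 ± 0.28, adjusted p = 3.3e-09). Hspa1b, a near-identical gene beside it whose probe may share signal, fell 5.99-fold. The mitochondrial chaperone genes Hspa9 and Hspd1 rose 3.15-fold and 2.90-fold, and Cct3, a subunit of the cytosolic chaperonin for actin and tubulin, rose 2.99-fold. Over the 25 measured heat shock genes 7 rose (28%) and 5 fell (20%), near the 22.7% and 24.3% of all genes tested. In the ER chaperone list 11 of 22 rose and 2 fell (median 0.39), none of the rises past 2.12-fold, the value of Pdia6. In the ATF4 list 6 of 20 rose and 4 fell, and the stress-induced genes Trib3, Atf5 and Ddit3 fell 4.34-fold, 3.43-fold and 2.23-fold.

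Metabolic lists held both rises and falls. Of 20 glycolysis genes 9 rose and 3 fell, or 4 rose with only the compared groups fitted, and Pgam1, phosphoglycerate mutase, rose 2.72-fold. Of 22 cholesterol and fatty acid synthesis genes 1 rose and 5 fell. The rise was Lss, lanosterol synthase, at 2.73-fold with 1 probe of opposite sign, a second gene rose without unstimulated array 1, IgE array 2 or number 2, and Fads1, a fatty acid desaturase, fell 2.37-fold. Of 12 hypoxia-responsive genes 3 rose and 4 fell, and Ddit4, an inhibitor of mTORC1, fell 2.68-fold. Of 20 genes of the NRF2 and itaconate list 5 rose and 7 fell, with 3 rises without unstimulated array 3 or IgE array 3 and 4 falls without number 2. Acod1, which makes itaconate, went from 10.09, 11.32 and 9.84 to 12.25, 12.30 and 12.08 (1.79 ± 0.35, 3.46-fold), and Cat, catalase, fell 3.05-fold.

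Solute carriers rose in 47 of 170 cases (27.6%) and fell in 32 (18.8%), where 22.7% and 24.3% of all genes tested did. Slc6a12 and Slc6a13, transporters of betaine and GABA that neighbour each other on chromosome 6, rose 12.3-fold and 6.37-fold. Slc6a12 went from 5.06, 4.95 and 4.84 to 8.42, 8.22 and 9.06 (3.62 ± 0.23, adjusted p = 2e-09). Slc6a9, a glycine transporter, fell 4.85-fold from 10.81, 10.75 and 10.62 to 8.13, 9.29 and 7.93. The IgE arrays of all 3 transporter genes lay apart from the unstimulated arrays.

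Autophagy genes leaned down and lysosome genes did not. Of 27 autophagy genes 14 fell (51.9%) and 4 rose (14.8%), with a median of -0.31. Of 34 lysosome genes 8 fell (23.5%) and 7 rose (20.6%), with a median of 0.00035. The lysosome shares were near the 24.3% and 22.7% of all genes tested. Atg10 went from 8.57, 8.64 and 8.82 to 7.23, 6.94 and 6.93, a fall of 3.12-fold (-1.64 ± 0.16), and Ulk1, the kinase that starts autophagy, fell 2.82-fold. Atg4d, a protease of the pathway, rose 2.33-fold, and the lysosomal protease gene Ctsz rose 3.18-fold.

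Cell cycle genes gave no single direction, with 9 rises and 7 falls among 26 DNA replication genes and 5 rises and 3 falls among 17 mitosis genes, the latter with 3 rises without IgE array 1. Ccnd2, a cyclin of growth factor response, went from 6.85, 7.45 and 7.29 to 10.31, 9.89 and 10.08, a rise of 7.46-fold (2.90 ± 0.17), with 1 of its 4 probes opposite in sign. Mcm6, a subunit of the replicative helicase, fell 2.61-fold. Of 18 p53 targets and inhibitors of cyclin-dependent kinases 5 rose (27.8%) and 4 fell (22.2%), near the 22.7% and 24.3% of all genes tested. Plk3, a polo-like kinase, rose 9.51-fold, and Trp53inp1 fell 5.65-fold.

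Genes that define basophils as a lineage stayed above background and moved in both directions. Mcpt8, the protease gene that marks mouse basophils, stood at 12.79, 13.45 and 12.76 in unstimulated cells and 12.65, 13.16 and 12.63 after IgE (-0.18 ± 0.21, adjusted p = 0.51). Prss34, a second basophil protease gene, stood at 14.52, 14.59 and 14.34 against 14.51, 14.59 and 14.44 (0.03 ± 0.12, adjusted p = 0.89). These levels lie close to the highest of the normalized scale, 14.75, so they leave little room for a rise to be seen. Cd200r3, an activating surface receptor, fell by 0.56 on the log2 scale (± 0.13, adjusted p = 0.0013), and Gata2, a transcription factor of basophils and mast cells, rose 1.55-fold. Over the 17 basophil markers, all measured and detected, 6 rose and 4 fell, where 22.7% and 24.3% of all genes tested did. Their summed linear level was 129590 to 141200 on unstimulated arrays and 160930 to 169770 on IgE arrays, a sum that includes Il4.

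Granule and mediator genes changed less than cytokine genes. Of 13 granule protease and proteoglycan genes 4 rose and 1 fell, with Serpinb1a, a protease inhibitor gene, at 2.06-fold. Of 7 histamine and serotonin genes 1 rose and 2 fell, with 2 rises without unstimulated array 1 or IgE array 2 and 1 fall without unstimulated array 2 or IgE array 3. Tph1, the rate-limiting enzyme of serotonin synthesis, went from 6.28, 6.51 and 5.02 to 10.10, 9.64 and 9.71, a rise of 14.7-fold (3.88 ± 0.29, adjusted p = 1.4e-08). Hdc, which makes histamine, stood near the top of the scale at 14.65, 14.56 and 14.60 against 14.61, 14.70 and 14.46 after IgE (-0.01 ± 0.09, adjusted p = 0.91). These levels are of the brighter of its 2 probes, and the other changed by 0.52, with the opposite sign. With the mean of the probes of Hdc its change was 0.25 (adjusted p = 0.012). Of 17 prostaglandin and leukotriene enzymes 6 rose and 4 fell. Alox5, the first enzyme of leukotriene synthesis, rose 2.11-fold, and the microsomal glutathione transferases Mgst3 and Mgst2 fell 5.48-fold and 3.74-fold. Of 26 genes of exocytosis 4 rose and 6 fell, with the SNARE gene Stx6 at 4.01-fold higher and Vamp4 at 2.25-fold lower.

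Of 24 lineage transcription factors 12 rose (50%) and 5 fell (20.8%), where 22.7% and 24.3% of all genes tested did. Id1 and Id2, inhibitors of basic helix-loop-helix factors, rose 8.96-fold and 5.21-fold, and Gfi1, which encodes a transcriptional repressor, fell 3.12-fold. Of 26 integrin and adhesion genes 4 rose (15.4%) and 7 fell (26.9%), the falls near the share of all genes tested. Itgb7 went from 12.65, 12.87 and 12.64 to 10.99, 11.58 and 10.65, a fall of 3.12-fold (-1.64 ± 0.17), Selplg, the selectin ligand, fell 2.38-fold, and Itgb4 was at least 4.39-fold lower. Of 170 measured Zfp zinc finger genes 16 rose (9.41%) and 39 fell (22.9%), with a median of -0.08. Rises were fewer than among all genes tested, and falls were near that share. Other large falls were Crip2, a LIM domain gene (11.2-fold), Lypd6 (-3.32 on the log2 scale), Tmem71 (8.62-fold), the transcription factor gene Rfx2 (8.35-fold), the lipid transfer gene Osbpl5 (7.84-fold) and, above background on no IgE array, Tppp3 (at least 7.54-fold), Gml2 (at least 5.49-fold), Frat2 (at least 5.20-fold) and the ceramidase gene Acer2 (at least 4.03-fold). Tnfrsf22 fell 8.24-fold with 1 of its 4 probes opposite in sign.

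MHC class II genes rose in 5 of 9 cases and fell in 0, with a median of 0.71, and without IgE array 1 the falls were 2. Cd74, the invariant chain, went from 9.09, 8.86 and 8.52 to 11.03, 10.96 and 11.06, a rise of 4.57-fold (2.19 ± 0.17, adjusted p = 2.2e-08). H2-Ab1 rose 1.72-fold (0.79 ± 0.15). Dendritic cell markers, a list that holds Cd74, H2-Ab1 and Batf3, rose in 5 of 8 cases and fell in 0, and had a summed level of 790 to 1046 on unstimulated arrays and 2800 to 3015 on IgE arrays. Itgax, of the same list, was at least 1.52-fold higher, from 4.44, 4.43 and 4.44 to 4.84, 5.57 and 5.86. Zbtb46 was called higher as well, a call that ended with no filter on dim probes (0.24, adjusted p = 0.054). Other members, Flt3, Cd209a, Xcr1, Clec9a and Ciita, the master regulator of the class II genes, were above background on none of the 6 arrays.

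Interferon-response genes were lower after IgE and differed between replicate numbers. Of 26 measured genes 13 fell and 1 rose, with a median of -1.47. Cmpk2 stood at 8.97, 11.76 and 9.76 in unstimulated cells and 5.63, 8.28 and 6.40 after IgE (-3.39 ± 0.96, adjusted p = 0.0076). Rsad2, which encodes the antiviral protein viperin, stood at 11.32, 13.52 and 12.22 against 7.66, 11.33 and 8.64 (-3.14 ± 0.88, adjusted p = 0.0073), with unstimulated array 1 just under IgE array 2. Within each replicate number both genes were lower after IgE by more than 2 log2 units. With the replicate number as a block 22 of the 26 fell, and without number 2 also 22, while leaving out unstimulated array 2, IgE array 1 or IgE array 3 alone gave 8, and leaving out IgE array 2 gave 20.

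The single values shifted with those arrays. The change of Cmpk2 was -2.59 without unstimulated array 2, -3.99 without unstimulated array 1 and -4.15 without IgE array 2, and that of Rsad2 was -2.56 without unstimulated array 2, -2.37 without IgE array 1 and -4.20 without IgE array 2. Oasl1, which encodes an oligoadenylate synthetase-like protein, fell by 2.53 on the log2 scale (± 0.68), and its change was -3.20 without IgE array 2. Gbp3, a guanylate-binding protein gene, changed by -2.40 ± 0.40. Ifit3 did not pass (-2.15 ± 1.0, adjusted p = 0.087) and passed with the block (adjusted p = 0.0015). Bst2, which encodes tetherin, was the single rise, from 7.91, 9.33 and 9.18 to 9.30, 11.05 and 10.26 (1.40 ± 0.45, adjusted p = 0.017), and lost the call without unstimulated array 1 and without IgE array 2 (adjusted p 0.00026 to 0.10).

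The summed levels of markers of other cells overlapped between the 2 groups in most lists. Such a sum follows its brightest members and gives no amount of cells. Of 8 measured mast cell markers 4 rose and 1 fell, with 2 rises without IgE array 3, and their sum was 20519 to 24556 before and 21746 to 23391 after IgE. Of 5 measured eosinophil markers 1, Serpinb2, rose and 0 fell, and their sum was 629 to 1819 and 1238 to 1905. Prg2, a measured member, stood at 7.09, 9.46 and 8.29 in unstimulated cells and 6.91, 9.42 and 8.23 after IgE. Siglecf, Ccr3 and Epx were above background on none of the 6 arrays. The neutrophil sum was 1808 to 5650 and 1462 to 2356, with 0 of 11 members called higher or lower, and the replicate block called 1 higher and 2 lower. Of 12 macrophage and monocyte markers on the array 11 were measured, and their sum was 12577 to 22499 and 13825 to 19639. Among them 1 rose, Fcgr1, and 1 fell, Ccr2. Cd14 stood at 8.61, 9.99 and 9.53 in unstimulated cells and 8.19, 8.87 and 9.43 after IgE, and only Cx3cr1 was above background on none of the 6 arrays. The lymphocyte sum was 49.2 to 54.9 and 60.3 to 67.2 over 2 measured members, of which 1 rose, with Cd3e, Cd3g, Cd8a, Ms4a1, Ncr1 and Pax5 above background on none of the 6. Of 7 erythroid and megakaryocyte markers 2 fell, or 1 without unstimulated array 1 or IgE array 2, and their sum was 3269 to 5564 and 3056 to 3812. Hba-a1, an alpha globin gene of that list, went from 8.96, 8.16 and 8.36 to 6.07, 5.95 and 4.79, a fall of 7.43-fold (-2.89 ± 0.28). Leaving out 1 array moved several of these counts. The lymphocyte rise was 0 without unstimulated array 1 or 3 or IgE array 1 or 3, the eosinophil rises were 2 without IgE array 1, and the macrophage and monocyte rises were 2 without IgE array 1 and 0 without IgE array 2, with 2 falls without unstimulated array 1. Neutrophil markers had 2 falls without unstimulated array 1, 1 fall without IgE array 1 or 3, and 1 rise without unstimulated array 2, IgE array 1 or number 2. The part of such cells in any result was not tested.

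The same comparison in ST2KO cells shared no array with that in WT cells and gave changes of the same sign for most genes. There 4907 genes passed (49.2%), 2270 higher (22.8%) and 2637 lower (26.4%). Of the 2264 genes that rose in WT cells 2238 had a positive change in ST2KO cells and 1884 were called higher there, and of the 2421 that fell 2400 had a negative change and 2071 were called lower. Not 1 gene was called in opposite directions. Across the 9973 genes, which are not independent, Pearson's r between the changes was 0.951 and Spearman's rho 0.907. In the test of the difference itself 0 genes passed in limma (lowest adjusted p = 0.982), and 434 had an unadjusted p under 0.05 (4.35%). The 95% interval of the difference lay within 2-fold in either direction for 90.1% of the genes, with a median half-width of 0.45.

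The interval was wider for several cytokine and chemokine genes. Tnf stood at 5.95, 5.98 and 5.42 in unstimulated ST2KO cells and 13.64, 13.55 and 13.03 after IgE, and its response was larger than in WT cells by 1.26 (95% interval -0.17 to 2.69). For Csf2 the levels were 7.32, 6.65 and 6.18 against 14.02, 13.65 and 13.85, and the difference of responses was 1.13 (-0.03 to 2.30). In both genes the IgE levels of the genotypes were close, and WT unstimulated array 2 was the highest of the 6 unstimulated arrays. Il6 differed by 1.01 (0.21 to 1.81), Ccl17 by -1.06 (-2.09 to -0.04) and Dcstamp by -1.03 (-1.73 to -0.34), none of which passed adjustment. Larger differences were found in genes whose WT arrays spread widely, picked out after their values were seen. The change of Cxcl10 was -0.45 in ST2KO cells against -2.96 in WT cells, a difference of 2.52 (-0.77 to 5.81). Ccl7 rose by 6.03 in ST2KO cells against 3.94 in WT cells, a difference of 2.09 (-0.25 to 4.42). Ccl12 and Ccl8 did not pass in ST2KO cells, with changes of 1.05 and 0.29 against 3.06 and 2.19 in WT cells, and their differences were -2.01 (-4.02 to -0.0032) and -1.90 (-3.56 to -0.25). None of these 4 passed adjustment either (adjusted p = 0.982 each). Il4 rose by 3.98 ± 0.11 in ST2KO cells, and Ccl1 was at least 269-fold higher there.

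**Figure D4:**
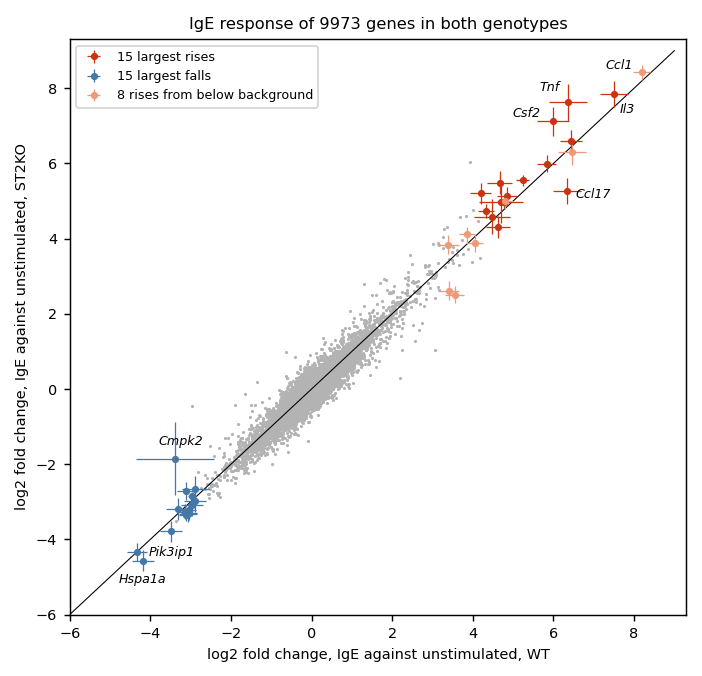
Log2 fold change of IgE against unstimulated in ST2KO basophils (vertical) and WT basophils (horizontal), grey points for the 9973 genes tested, coloured points with SE bars for the genes with the largest changes in WT cells, and the line of equal change. The points lie along the line, with Pearson's r of 0.951 across genes.

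IgE and IL-33 left WT cells in different states. IL-33 for the same labelled 4 h called 377 genes (3.78%), 300 higher (3.01%) and 77 lower (0.772%), against the same unstimulated arrays, so these changes and those after IgE are not independent. The direct comparison of IgE with IL-33 in WT cells called 4285 genes (43%), 2111 higher (21.2%) and 2174 lower (21.8%) after IgE. Il4 stood at 10.87, 11.26 and 10.98 after IL-33 and was 12-fold higher after IgE (3.58). Il3 stood at 4.43, 5.72 and 4.42 after IL-33 and was 171-fold higher after IgE. Ccl1, at 5.42, 5.84 and 5.77 after IL-33, was 127-fold higher, Ccl17 36.9-fold, Scimp 28.2-fold and Il13 26.1-fold. Il2, Rgs16 and Xcl1 were above background on no IL-33 array and at least 66.3-fold, 32.2-fold and 19.6-fold higher after IgE.

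Some inflammatory genes did not pass the direct comparison. Cxcl2 stood at 12.56, 12.59 and 12.79 after IL-33, and IgE differed from it by 0.41 (adjusted p = 0.31). Il1b, near the top of the scale after IgE, differed by 0.27 (adjusted p = 0.19). A p that misses the threshold does not show equal levels. Tnf, at 9.25, 10.28 and 8.90 after IL-33, was 17.5-fold higher after IgE, Csf2 6.21-fold and Il6 2.53-fold. Several genes were lower after IgE than after IL-33. Dgat2, an enzyme of triglyceride synthesis, stood at 9.27, 9.17 and 8.89 after IL-33 and at 5.85, 6.23 and 5.57 after IgE, 9.37-fold lower. Plat, which encodes tissue plasminogen activator, was 8.62-fold lower after IgE than after IL-33, although IgE itself left it at least 5.67-fold above unstimulated cells. Milr1 and the NF-kB feedback genes Zc3h12a, Nfkbia and Ikbke were also lower after IgE than after IL-33, by 1.56, 1.11, 1.07 and 0.84 on the log2 scale.

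By gene group the stimuli stood as follows. IgE called 31 of 35 ribosome biogenesis genes higher, with a median change of 1.44, and IL-33 called 0 higher and 0 lower, with a median of 0.24. IgE called 15 of 18 genes of the FoxO list lower, and IL-33 called 0 lower and 2 higher. Of 27 NF-kB genes IgE called 18 higher and 4 lower, and IL-33 14 higher and 0 lower, with medians of 0.87 and 0.90. Pik3ip1 and Hspa1a were 13.6-fold and 19.2-fold lower after IgE than after IL-33 in the direct comparison, and Bcl6 and Fos were lower by 3.15 and 3.17 on the log2 scale.

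**Figure D5:**
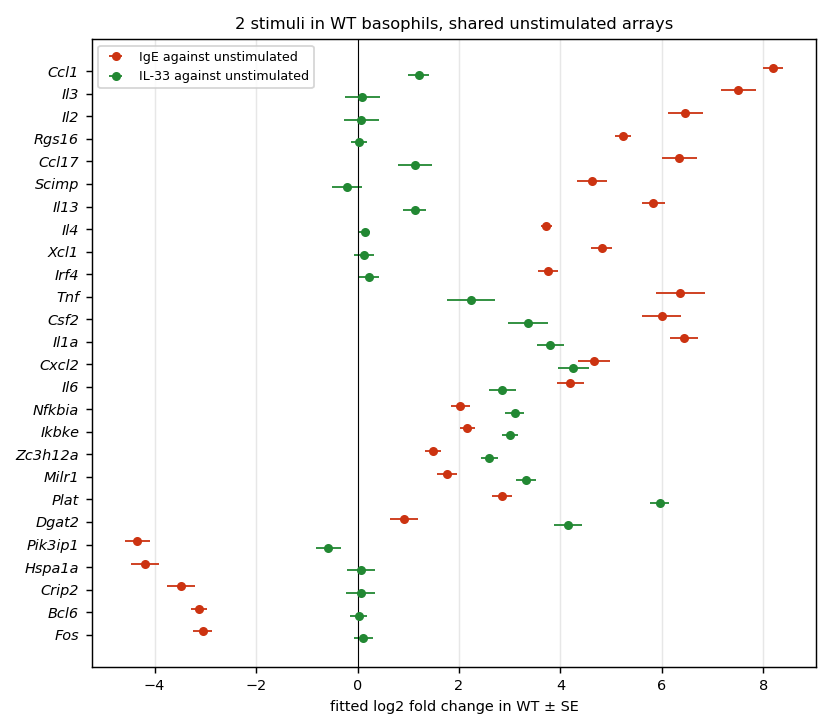
Fitted log2 fold change ± SE against the shared unstimulated WT arrays after IgE and after IL-33, for genes named in the text (n = 3 arrays per group). Il3 stands at 7.51 after IgE and 0.09 after IL-33, and Cxcl2 at 4.66 and 4.25.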

How the data were processed

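The authors deposited 1 table with an average bead intensity and a detection p-value per probe and array, for 18 arrays. Per the file headers a detection p-value follows each intensity, and their steps of 1 in 936 give its resolution; for the scanner software, slides and background step nothing is stated: they are not given in the sources read here. These intensities are linear, not normalized and not background-subtracted, with lowest values of 76.2 to 83.7 per array. A second deposited table holds the authors' processed values, which rank probes as the intensities do and look like log2 values after quantile normalization; every array has a median of 4.29, and their log base and background step stay unknown. It was used as an alternative. The intensity table has 4 blank lines.

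The background step was limma's neqc (version 3.58.1, R 4.3.3; normexp fitted with the detection p-values, offset 16, log2, quantile normalization). The offset compresses the folds of dim probes. A probe was kept where at least 3 of the 18 arrays detected it at p under 0.05 (18078 of 45281). GEO's platform annotation pairs 34885 probes with 1 gene symbol, 18 with several and 10378 with none, and only the first were used, with the brightest kept probe for each of 9973 genes. Of 3645 genes with several probes, 1989 were called, and 301 of those had a probe with a change of opposite sign. Probes of the same sign could differ in size as well. For example, the weakest probe changed by 0.16 for Egr3, 0.25 for Pik3cd, -0.26 for Cd300a, -0.28 for Klhl24 and -0.04 for Fads1. The folds given are those of the brightest probe. Il1rl1, the gene of ST2, is paired with 0 probes, so the deletion was not checked here.

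All 6 groups were fitted together in limma, without a block, and the contrasts were IgE against unstimulated in each genotype, their difference and IgE against IL-33 in WT cells. On simulated data for IgE in WT cells with 9973 genes, 38.8% of changes of 0.5, 88.1% of 1 and 98.5% of 2 on the log2 scale were recovered, and 8 of 158 calls were false. Only 67, 67 and 66 genes carried these changes, where 4685 passed in the data, and the noise was independent, without pairing by number. The rates therefore check the procedure and are not the recovery or error rates of the real comparison. The median half-width of the 95% interval of a change was 0.32. Same-numbered unstimulated and IgE arrays deviated from their group means with correlations of 0.22, 0.31 and 0.28 in WT and 0.12, 0.15 and 0.21 in ST2KO cells, so the numbers of the labels pair the samples.

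Genes were named by rule: the 15 largest rises and falls detected in both groups, the 8 largest bounds per direction, the 5 largest changes of each of 57 lists, the fixed genes Il4, Il13, Il6, Il3, Mcpt8, Fcer1a, Ms4a2, Cd200r3 and Myc, and 8 per direction in the other contrasts. The arrays, lists and rules were chosen with earlier results of these data known. Genes outside the rule, such as Il33, Il1rn, Ccl3, Ccl7, Egr3, Bcl2, Foxo3 and Npm1, were added after their values were seen. Setting genes below background at their bound moved no list median by more than 0.17. Promoters are RefSeq's (GRCm38.p6). Alternatives changed the background step, offset, normalization, probe filter, probe summary, samples fitted, block, array weights and variance model, and left out arrays.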

Additional observations from a re-analysis of the deposited data

How the results depend on the processing

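Under each alternative tried, IgE called between 3813 and 5021 genes in WT cells (main 4685), and 6 of the main calls turned sign, all with the mean of a gene's probes. The lowest count came from fitting only the compared groups. Without 1 array at a time or without number 2 the calls ran from 4115 to 4551, 2002 to 2202 higher and 2113 to 2354 lower, and at 2-fold or more 715 to 819 higher and 611 to 739 lower. The number of 2-fold changes depended on the background step. With no background correction 391 were higher and 304 lower (main 759 and 642). With an offset of 50 there were 519 higher and 417 lower, because an added constant shrinks the folds of dim probes. The same alternatives gave 4321 to 5192 calls in ST2KO cells and 3656 to 4112 for IgE against IL-33 when arrays were left out, and 0 genes for the difference between genotypes.

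With the replicate block, which follows the pairing by number, 5021 genes passed and 4624 of the 4685 main calls were kept. The block changed no count over all genes by 1.5 times. Among lists it gave 22 falls of interferon genes (main 13), 2 rises of histamine and serotonin genes (main 1), 1 fall of MHC class II genes (main 0), 2 rises of eosinophil markers (main 1) and 1 rise and 2 falls of neutrophil markers (main 0 and 0). Among named genes Aurka lost its call (adjusted p = 0.051), and Ear6, Ifit3, Mmp9, Mpo, N4bp1, Ppbp, S100a9, Slc18a2, Tpsab1 and Il18rap gained one.

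Of 349 named genes, 315 called, 45 had a call that ended, started or turned under some alternative. Hdc turned from -0.01 to 0.25 with the mean of its 2 probes, whose changes were -0.01 and 0.52. With only the compared groups fitted, list counts fell to 15 rises in the respiratory chain (main 29), 8 falls of cytoplasmic ribosomal proteins (main 15), 4 rises and 1 fall in glycolysis (main 9 and 3), and 1 fall of mitochondrial ribosomal proteins (main 4). Other list counts that moved by over 1.5 times were small. Probes near background limit the precision: 186 rises and 163 falls have only a bound. Ccl3 and Il4 stood at or near the top of the scale, which limits their folds.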
